A study of Mus musculus with 20 samples.

Results

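The carbonic anhydrase genes of the mouse intervertebral disc were taken from a table of FPKM, fragment numbers normalised to transcript length and library size, by their symbols: Car1, Car2, Car3, Car4, Car8, Car9, Car11, Car12, Car13 and Car14. They are 10 of the 51789 genes in the table, and none of their measured values was used to choose them. The study addressed the activation of the deacetylase SIRT6 in ageing discs. It compared BL6 mice given weekly intraperitoneal MDL-800, a small-molecule SIRT6 activator, in DMSO with mice given DMSO alone, from 18 months of age for 6 months. At 24 months the gel-like core of the disc, the nucleus pulposus (NP), was dissected apart from the ring of fibrous lamellae that encloses it, the annulus fibrosus (AF). The 4 groups were NP vehicle (libraries 1, 2, 3, 5 and 6), NP MDL-800 (15, 18, 19, 20 and 22), AF vehicle (8, 9, 10, 12 and 13) and AF MDL-800 (25, 27, 28, 29 and 30), each of 5 libraries. All 4 groups were aged and had received DMSO, and no young or uninjected mice were analysed here. The labels call the material both tissue and primary cells, and the protocol describes tissue placed directly in preservative. Nothing in the labels says that the libraries of a group came from separate mice, so p-values measure the spread between these libraries.

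Carbonic anhydrases are zinc enzymes that interconvert carbon dioxide and water with bicarbonate and a proton. The nucleus pulposus has no blood vessels and lives largely on glycolysis, so its cells must move acid and carbon dioxide over long diffusion distances. Cytosolic forms (Car1, Car2, Car3, Car13) work inside the cell, and membrane forms (Car4, Car9, Car12, Car14) have their active site outside it. Car8 and Car11 belong to the carbonic anhydrase-related proteins, which lack the catalytic activity.

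All 10 are protein-coding genes in GENCODE M21 (GRCm38, the mm10 build). On chromosome 3 lie Car13 (ENSMUSG00000027555) at chr3:14641727-14663002 on the plus strand, Car1 (ENSMUSG00000027556) at chr3:14766216-14808368 on the minus strand, Car3 (ENSMUSG00000027559) at chr3:14863512-14872523 on the plus strand, Car2 (ENSMUSG00000027562) at chr3:14886273-14900770 on the plus strand and Car14 (ENSMUSG00000038526) at chr3:95897768-95904691 on the minus strand. On chromosome 4 lie Car8 (ENSMUSG00000041261) at chr4:8143362-8239041 on the minus strand and Car9 (ENSMUSG00000028463) at chr4:43506966-43513729 on the plus strand. The remaining genes are Car11 (ENSMUSG00000003273) at chr7:45699843-45704682 on the plus strand, Car12 (ENSMUSG00000032373) at chr9:66713686-66766845 on the plus strand and Car4 (ENSMUSG00000000805) at chr11:84957786-84966044 on the plus strand.

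The 20 libraries had an estimated 12.7 to 22.0 M fragments each, read from the steps that single fragments leave in low FPKM values. Values below are FPKM scaled between libraries by factors of 0.933 to 1.06, and differences are in log2(scaled FPKM + 1), which understates changes of genes near or below 1 FPKM. Tests were made with limma over the 16383 genes that reached 1 FPKM in at least 5 libraries, and a difference was called at a Benjamini-Hochberg adjusted p under 0.05. Of the 10 genes, 9 were tested, and Car4, at 1 FPKM in only 1 library, was not. Car8 and Car12 reached the filter only through AF libraries, so a count that includes them is not support for a difference between tissues. The NP label was checked against its markers: T, Krt8, Krt18, Krt19, Cd24a, Shh and Cdh2 were higher in NP vehicle than in AF vehicle, and Foxf1 was lower. Between the MDL-800 groups 6 of these 7 were higher, Shh was not called (0.46, limma adjusted p = 0.395), and Foxf1 was again lower. AF libraries still held T at 21.7% and Krt8 at 21.9% of the NP vehicle mean. Of the AF markers, 6 of 7 were higher in AF in vehicle mice and 5 of 7 in MDL-800 mice, where Scx was not called. Genes lower in NP made up 33.9% of all tested genes between the vehicle groups. Markers of other tissues were higher in AF vehicle, 9 of 9 for red cells, 7 of 7 for osteoclasts, 8 of 8 for bone, 10 of 10 for fast and 6 of 6 for slow muscle, 7 of 8 for fat, 7 of 7 for endothelium, 7 of 7 for neutrophils and 6 of 6 for nerve. Some markers stayed under 1 scaled FPKM in every NP library and passed the filter through AF alone. Among them were Foxf1, Oscar, Dcstamp, Dmp1, Phex, Mepe, Lep, Pck1, Kdr, Tek, Emcn, Cldn5 and Mag. Marker counts that include such genes are not support for a difference between tissues, here or below. Cartilage markers were mixed, with 3 of 7 higher in AF vehicle, 1 higher in NP (Acan, 1.92) and 3 not called.

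The promoters of Car9, Car14 and Car12 are shown as those of the 3 transmembrane forms, of which Car9 is a textbook target of the hypoxia-inducible factors. The 100 bases before the RefSeq start site (GRCm38.p6) are given 5′ to 3′ on the gene's strand, with capitals marking CACGT, the reverse complement of the core ACGTG of a hypoxia response element. Car9 lies at chr4:43506926-43507025 on the plus strand, Car14 at chr3:95904686-95904785 on the minus strand and Car12 at chr9:66713586-66713685 on the plus strand.
Car9: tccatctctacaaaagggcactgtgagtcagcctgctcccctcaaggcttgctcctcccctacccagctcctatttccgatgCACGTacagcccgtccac
Car14: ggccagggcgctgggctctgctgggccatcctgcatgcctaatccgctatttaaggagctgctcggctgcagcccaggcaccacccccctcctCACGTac
Car12: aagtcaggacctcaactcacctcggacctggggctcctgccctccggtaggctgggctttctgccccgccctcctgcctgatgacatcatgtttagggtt
The letters ACGTG or CACGT began at base -18 from the RefSeq start of Car9 and at base -7 from that of Car14. Neither was in the Car12 window. The GENCODE start of Car9, 43506966, lies inside its window, so by the GENCODE coordinates the Car9 match is within the gene. The Car14 window also reaches past its GENCODE start at 95904691. ACGTG or CACGT stood in 8.09% of the same 100-base windows of 32851 RefSeq promoters. The other form searched, GCGTG or its reverse complement CACGC, stood in 15.6% of them and was not in the windows shown. Either form stood in 43.8% of the full 300-base promoters. Promoters were found for 5 of the 10 genes, the others of these being Car4 and Car11. That of Car4 held CACGT at base 3, and those of Car11 held CACGC at bases -218 and 2. A match is a description of the letters, and no binding was measured.

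**Figure D1:**
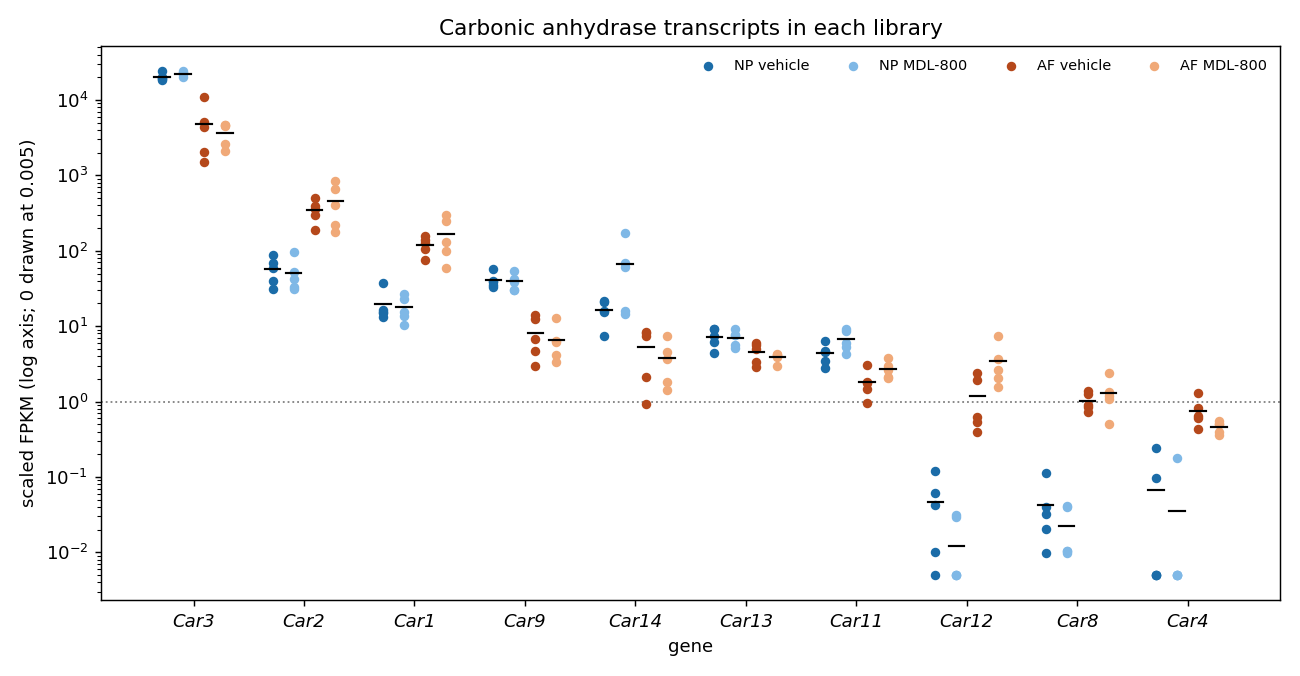
Scaled FPKM of each carbonic anhydrase gene (log axis) in the 20 libraries, coloured by group, with black bars at the group means and 0 drawn at 0.005. Car3 lies above the other genes in every library, far above them in NP, and Car12, Car8 and Car4 stay under 0.25 in all NP libraries.

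Car3 was the dominant carbonic anhydrase transcript of the disc. It encodes a cytosolic form with low hydratase activity, best known from slow skeletal muscle, fat and liver. In NP vehicle libraries 1, 2, 3, 5 and 6 it was measured at 18950, 24180, 19500, 20520 and 18580 scaled FPKM. In NP MDL-800 libraries 15, 18, 19, 20 and 22 it stood at 20190, 22060, 24030, 22710 and 23020. These NP values are close together, and the groups overlap. In AF vehicle libraries 8, 9, 10, 12 and 13 the values were 2067, 10910, 5109, 4369 and 1513, and in AF MDL-800 libraries 25, 27, 28, 29 and 30 they were 4529, 2587, 2088, 4623 and 4646. Every AF library was below every NP library, and AF vehicle library 9 was the highest of the AF libraries. By group mean Car3 ranked 1 of 21780 protein-coding genes in both NP groups and the AF vehicle group, and 5 in AF MDL-800. It took 4.05% to 5.09% of all protein-coding FPKM in the NP vehicle libraries. Shares were also taken of the FPKM of these 10 genes and the other 6 family members. Car3 made up 98.9% to 99.4% of it in NP vehicle and 77.2% to 94.0% in AF vehicle. Under MDL-800 it made up 98.6% to 99.4% in NP and 69.0% to 92.8% in AF. The mean in NP vehicle was 20340 ± 2264 (SD, n = 5) and in AF vehicle 4794 ± 3739 (SD, n = 5), a ratio of 4.24. The log2 difference was 2.43 (SE 0.52, limma adjusted p = 0.00223) between the vehicle groups and 2.68 (SE 0.29, adjusted p = 2.08e-05) between the MDL-800 groups. With no filter on low values the vehicle difference kept its size and was no longer called (adjusted p = 0.132).

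Car2, the fast cytosolic form abundant in red cells and osteoclasts, ran the opposite way. It stood at 67.9, 58.5, 31.5, 39.7 and 88.7 scaled FPKM in NP vehicle and at 32.9, 52.6, 41.8, 31.5 and 95.6 in NP MDL-800, in library order. In AF vehicle it stood at 361, 498, 394, 188.0 and 294, and in AF MDL-800 at 402, 176, 653, 217 and 844. All AF libraries were above all NP libraries, and NP library 6 and NP library 22 were the highest of their groups. NP was lower than AF by 2.60 (log2 difference -2.60, SE 0.31, adjusted p = 6.31e-05) in vehicle mice and by 3.02 (log2 difference -3.02, SE 0.46, adjusted p = 0.000193) in MDL-800 mice.

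Car1, a slower cytosolic form and one of the most abundant proteins of red cells, followed the same order. Its values were 15.6, 13.4, 15.0, 16.7 and 37.4 scaled FPKM in NP vehicle and 15.3, 23.2, 13.6, 10.5 and 27.0 in NP MDL-800. The AF vehicle libraries had 139, 156, 106, 75.8 and 126 and the AF MDL-800 libraries 130.3, 59.5, 252, 99.95 and 297. The lowest AF library still exceeded the highest NP library, and NP vehicle library 6 stood apart from the other 4 of its group. Summed over the 9 red cell markers tested, that library also had the highest level of its group, 156 scaled FPKM against 43.7 to 94.9. The part of red cell RNA in the Car1 values was not tested. The log2 difference, NP minus AF, was -2.62 (SE 0.28, adjusted p = 2.95e-05) in vehicle and -3.00 (SE 0.42, adjusted p = 0.000126) in MDL-800 mice.

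Car13, a broadly expressed cytosolic form, had the smallest tissue difference of the 9 tested genes in both comparisons. NP vehicle libraries had 9.31, 9.07, 4.36, 6.13 and 7.38 scaled FPKM, and NP MDL-800 libraries 5.07, 5.68, 7.72, 7.71 and 9.12. AF vehicle libraries had 5.99, 5.67, 3.37, 4.97 and 2.85, and AF MDL-800 libraries 4.29, 3.94, 3.00, 4.14 and 4.12. The vehicle groups overlap, since NP library 3 lies within the AF range, and the MDL-800 groups do not. The difference was 0.57 (SE 0.23, 95% interval 0.07 to 1.07, adjusted p = 0.0535, not called) in vehicle and 0.70 (SE 0.15, adjusted p = 0.00224) in MDL-800 mice. Without NP vehicle library 3, AF vehicle library 8 or AF vehicle library 9 the vehicle difference was called, at 0.71, 0.66 and 0.64. Car13, Car1, Car3 and Car2 lie side by side on chromosome 3 (mm10, GENCODE M21), from the Car13 start at 14641727 to the Car2 end at 14900770. The gaps between them were 103213, 55143 and 13749 bp, with 0 other protein-coding genes in any gap. Of these 4 neighbours, Car3 was higher in NP in both comparisons and Car1 and Car2 were lower.

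Car9, the membrane form known as a hypoxia-induced enzyme that acidifies the space around the cell, was also higher in NP. It stood at 38.6, 33.6, 57.6, 40.2 and 35.4 scaled FPKM in NP vehicle and at 38.8, 42.1, 54.0, 30.6 and 30.6 in NP MDL-800. In AF vehicle it stood at 4.69, 14.0, 12.4, 6.77 and 3.00, and in AF MDL-800 at 12.8, 6.32, 3.33, 6.24 and 4.19. No AF library reached the lowest NP library. The NP vehicle mean was 41.1 ± 9.6 (SD, n = 5) and the AF vehicle mean 8.16 ± 4.80 (SD, n = 5), a ratio of 5.03. The log2 difference was 2.35 (SE 0.34, adjusted p = 0.000191) in vehicle and 2.50 (SE 0.29, adjusted p = 3.1e-05) in MDL-800 mice. AF vehicle held Car9 at 19.9% of its NP vehicle mean, beside 23.6% for Car3 and 21.7% to 36.6% for the 7 NP markers higher in NP. The exons of Car9 overlap the antisense gene Gm12454, which stood at 1.15 to 5.29 scaled FPKM. Whether the gene counting used strand is not stated in the sources used here.

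Car14, a transmembrane form with an extracellular active site, spread widely over the NP libraries. It stood at 7.45, 20.6, 21.8, 15.6 and 16.1 scaled FPKM in NP vehicle and at 172, 69.5, 16.0, 61.2 and 14.4 in NP MDL-800. Libraries 15, 18 and 20 lay above all vehicle libraries, and libraries 19 and 22 lay within the vehicle range. In AF the values were 0.92, 8.33, 7.39, 8.13 and 2.10 for vehicle and 1.44, 4.57, 3.71, 7.45 and 1.80 for MDL-800. NP vehicle library 1 fell within the AF vehicle range, and the MDL-800 groups did not overlap. The tissue difference was 1.62 (SE 0.47, adjusted p = 0.0125) in vehicle and 3.40 (SE 0.64, adjusted p = 0.000889) in MDL-800 mice, the latter the rise ranked 5 among the 16383 genes. Car14 exons overlap Aph1a on the opposite strand, which stood at 24.1 to 54.0 scaled FPKM over all libraries. In NP MDL-800 libraries 15, 18 and 20 Aph1a stood at 37.0, 43.7 and 49.3, and in libraries 19 and 22 at 39.2 and 40.2. The part of Aph1a in the Car14 values was not tested.

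Car12, a transmembrane form of secretory epithelia and of cartilage and bone cells, was near 0 in every NP library. In NP vehicle it stood at 0.043, 0.062, 0.010, 0 and 0.119 scaled FPKM, and in NP MDL-800 at 0.030, 0, 0, 0 and 0.031. One fragment was worth an estimated 0.00612 to 0.0106 FPKM there, so the NP values stand for 0 to about 16.7 fragments. In AF vehicle it stood at 1.94, 0.54, 0.39, 0.62 and 2.37, and in AF MDL-800 at 1.54, 2.63, 7.44, 3.63 and 2.07. All AF libraries were above all NP libraries. The difference, NP minus AF, was -0.96 in vehicle and -2.01 in MDL-800 mice, given without a test because Car12 passed the filter through AF alone. Under quantile normalization the vehicle difference was -0.48.

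Car4, a membrane-anchored form of capillary endothelium, was listed at 0 in 7 of the 10 NP libraries. Libraries 1 and 3 of NP vehicle had 0.096 and 0.243 scaled FPKM, and library 15 of NP MDL-800 had 0.179. In AF it stood at 0.638, 0.434, 0.811, 1.28 and 0.603 in vehicle and at 0.359, 0.499, 0.504, 0.559 and 0.398 in MDL-800. Every AF library was above every NP library. In a fit without the filter on low values the tissue difference was -0.70 (adjusted p = 0.00225) in vehicle and -0.50 (adjusted p = 0.000177) in MDL-800 mice. Endothelial markers summed to 4.22 to 7.64 scaled FPKM in NP vehicle and 49.5 to 107 in AF vehicle, and their part in the Car4 values was not tested.

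Of the catalytically inactive pair, Car8 was near 0 in NP and Car11 was higher in NP than in AF. Car8, an intracellular protein that binds the inositol trisphosphate receptor in Purkinje cells, ranged from 0.010 to 0.111 scaled FPKM over NP vehicle libraries and from 0.010 to 0.041 over NP MDL-800 libraries. The AF ranges were 0.73 to 1.40 with vehicle and 0.50 to 2.43 with MDL-800. The NP values stand for 0.674 to 8.91 estimated fragments, and no AF library overlapped them. The difference was -0.95 in vehicle and -1.13 in MDL-800 mice, given without a test for the same reason as for Car12. Car11 is a secreted protein known from brain. NP vehicle libraries had 4.55, 4.64, 3.49, 2.77 and 6.46 scaled FPKM, and NP MDL-800 libraries 5.93, 4.26, 5.32, 8.63 and 9.17. AF vehicle libraries had 1.82, 3.06, 0.95, 1.78 and 1.47, and AF MDL-800 libraries 3.83, 2.62, 2.11, 3.00 and 2.03. Only NP vehicle library 5 lay within the range of its AF group. The difference was 0.94 (SE 0.22, adjusted p = 0.00452) in vehicle and 1.02 (SE 0.20, adjusted p = 0.00131) in MDL-800 mice.

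Between the vehicle groups, 6 of the 7 genes that reached 1 FPKM in at least 5 libraries of each tissue were called, 4 higher in NP (Car3, Car9, Car11, Car14) and 2 lower (Car1, Car2). Over all tested genes limma called 55.7%, with 21.8% higher and 33.9% lower, so a high share of calls is the background here. The groups did not overlap for 4 of the 7, beside 41% of all tested genes. Between the MDL-800 groups 7 of these 7 were called, 5 higher and 2 lower, beside 62.8% of all genes (25.6% higher, 37.2% lower). The MDL-800 groups did not overlap for the 7, beside 49.1%. The direction of each of the 7 was the same in the 2 tissue comparisons, which share no library. The share of all tested genes that kept their direction was not taken, so this is not a result particular to the 7. The 7 also met a stricter filter than the tested genes whose shares stand beside them. Car8 and Car12, kept by the filter through AF alone, are not counted here. Less RNA of a gene per cell and fewer cells that express it cannot be told apart in bulk tissue.

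**Figure D2:**
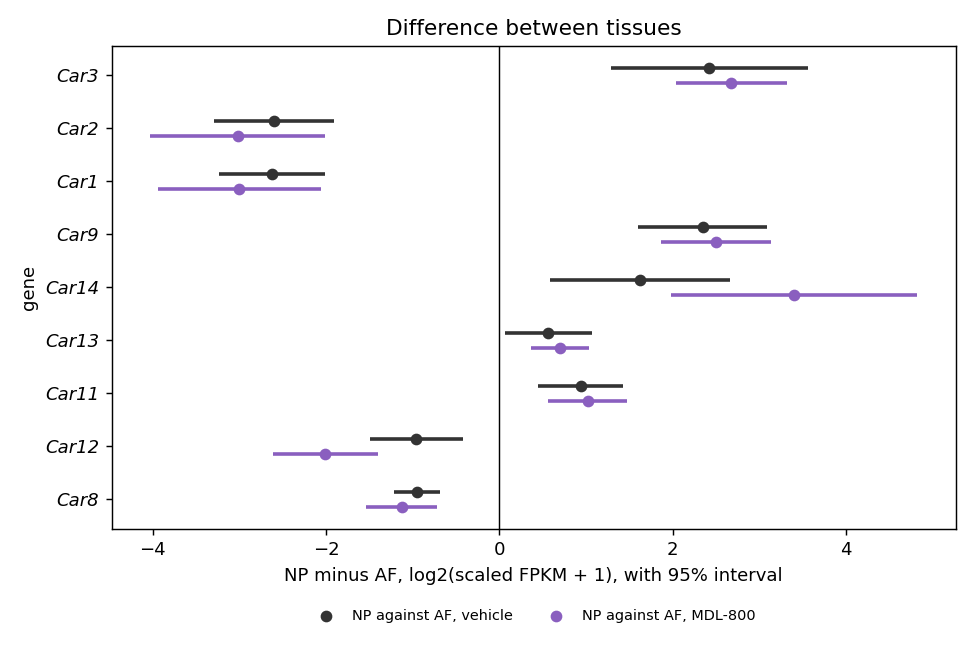
Difference between NP and AF in log2(scaled FPKM + 1) for the 9 tested genes, with 95% intervals from limma, in vehicle (dark) and MDL-800 mice (purple). Car3, Car9, Car14, Car13 and Car11 lie to the right of 0 and Car2, Car1, Car12 and Car8 to the left in both. Car8 and Car12 passed the filter through AF alone, so their intervals are not support for a tissue difference.

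The levels of several members moved with cell marker lists between libraries of the same tissue. Over the 10 AF libraries, taken as deviations from their group means, Car2 followed the mean level of 9 red cell markers with r = 0.997 (rho = 1, exact permutation within groups, adjusted p = 0.00167 for each, resting on 1 of 14400 orders, the smallest p they can give). Car1 followed the same markers in AF with r = 0.943 (rho = 0.903, exact permutation adjusted p = 0.00708 and 0.0275) and in NP with r = 0.892 (rho = 0.867, adjusted p = 0.00708 and 0.0243). In NP, Car2 gave r = 0.775 with red cell markers (rho = 0.697, adjusted p = 0.0502 and 0.138) and r = 0.816 with osteoclast markers (rho = 0.879, exact permutation adjusted p = 0.0411 and 0.0204). In AF the osteoclast relation of Car2 was r = 0.379 (rho = 0.309, exact permutation adjusted p = 0.69 and 0.788). Without the 2 libraries farthest from the median red cell level, r was 0.997 for Car2 in AF, 0.902 for Car1 in AF, 0.865 for Car1 in NP and 0.452 for Car2 in NP. The NP relation of Car2 with red cell markers thus rests on those libraries. Neither Car1 relation was then called (exact permutation adjusted p = 0.0833 in AF and 0.117 in NP). For Car2 with osteoclast markers in NP, leaving out the 2 libraries farthest from the median osteoclast level gave r = 0.782. That relation was no longer called (exact permutation adjusted p = 0.137). The part of red cells or osteoclasts in the tissue difference of Car1 and Car2 was not tested. Beside that difference, NP vehicle held 16.3% of the AF mean of Car1, 16.5% of that of Car2 and 6.73% to 11.9% of that of each red cell marker. All 9 red cell markers and all 7 osteoclast markers tested were lower in NP than in AF, in both treatments. The osteoclast markers Oscar and Dcstamp passed the filter through AF alone, so the osteoclast count is not support for a tissue difference.

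Car9 followed 13 other hypoxia target genes over the AF libraries, with r = 0.924 (rho = 0.879, exact permutation adjusted p = 0.00333 and 0.0204). Without the 2 farthest libraries r was 0.918 and no longer called (exact permutation adjusted p = 0.0667). Over the NP libraries r was 0.04 (rho = 0.127, exact permutation adjusted p = 0.954 and 0.99). Whether the relation differs between the tissues was not tested. AF library 9, with the highest Car9 of its tissue, also had the highest sum of NP markers there, 4263 scaled FPKM, and the highest Car3. Relations with NP markers were chosen after the values had been seen. Car3 gave r = 0.868 with them in AF (rho = 0.83, exact permutation adjusted p = 0.0399 and 0.0914 over 14 such relations) and Car9 gave r = 0.795 (rho = 0.697, adjusted p = 0.0724 and 0.152). Without the 2 farthest libraries these were 0.848 and 0.537, and that of Car3 was no longer called (exact permutation adjusted p = 0.292). The part of NP cells within AF samples in these values was not tested.

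No relation of Car3 with fat or muscle markers passed the permutation threshold. With fat markers r was -0.04 in NP and 0.05 in AF (rho -0.04 and 0.03, exact permutation adjusted p = 0.954 for r in each and 0.99 for rho in each). With fast muscle markers r was -0.26 and 0.26 (rho -0.32 and 0.19, exact permutation adjusted p = 0.774 and 0.69 for r, 0.775 and 0.855 for rho). With slow muscle markers r was -0.05 and 0.36 (rho 0.04 and 0.27, exact permutation adjusted p = 0.954 and 0.659 for r, 0.99 and 0.788 for rho). Without the 2 libraries farthest from the median slow muscle level, r in NP was -0.70 (exact permutation unadjusted p = 0.0375), so the NP value depends on those libraries. Of these markers, 7 of 8 for fat, 10 of 10 for fast and 6 of 6 for slow muscle were called lower in NP in both treatments. The fat markers Lep and Pck1 passed the filter through AF alone, so the fat count is not support for a tissue difference. Over all tested genes, 33.9% were lower in NP between the vehicle groups and 37.2% between the MDL-800 groups. The part of fat or muscle in the Car3 values was not tested. Car14 followed fast muscle markers in AF with r = 0.852 (rho = 0.879, exact permutation adjusted p = 0.00967 and 0.005) and r = 0.79 without the 2 farthest libraries. In NP, where its level was higher, r was 0.439 (rho = 0.515, exact permutation adjusted p = 0.377 and 0.361). Of the 24 relations, 6 passed an adjusted p under 0.05 by Pearson r, and they cover Car1, Car2, Car9 and Car14. Car8 and Car11 with nerve markers, Car12 with hypoxia targets and Car13 with red cell markers did not pass in either tissue.

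**Figure D3:**
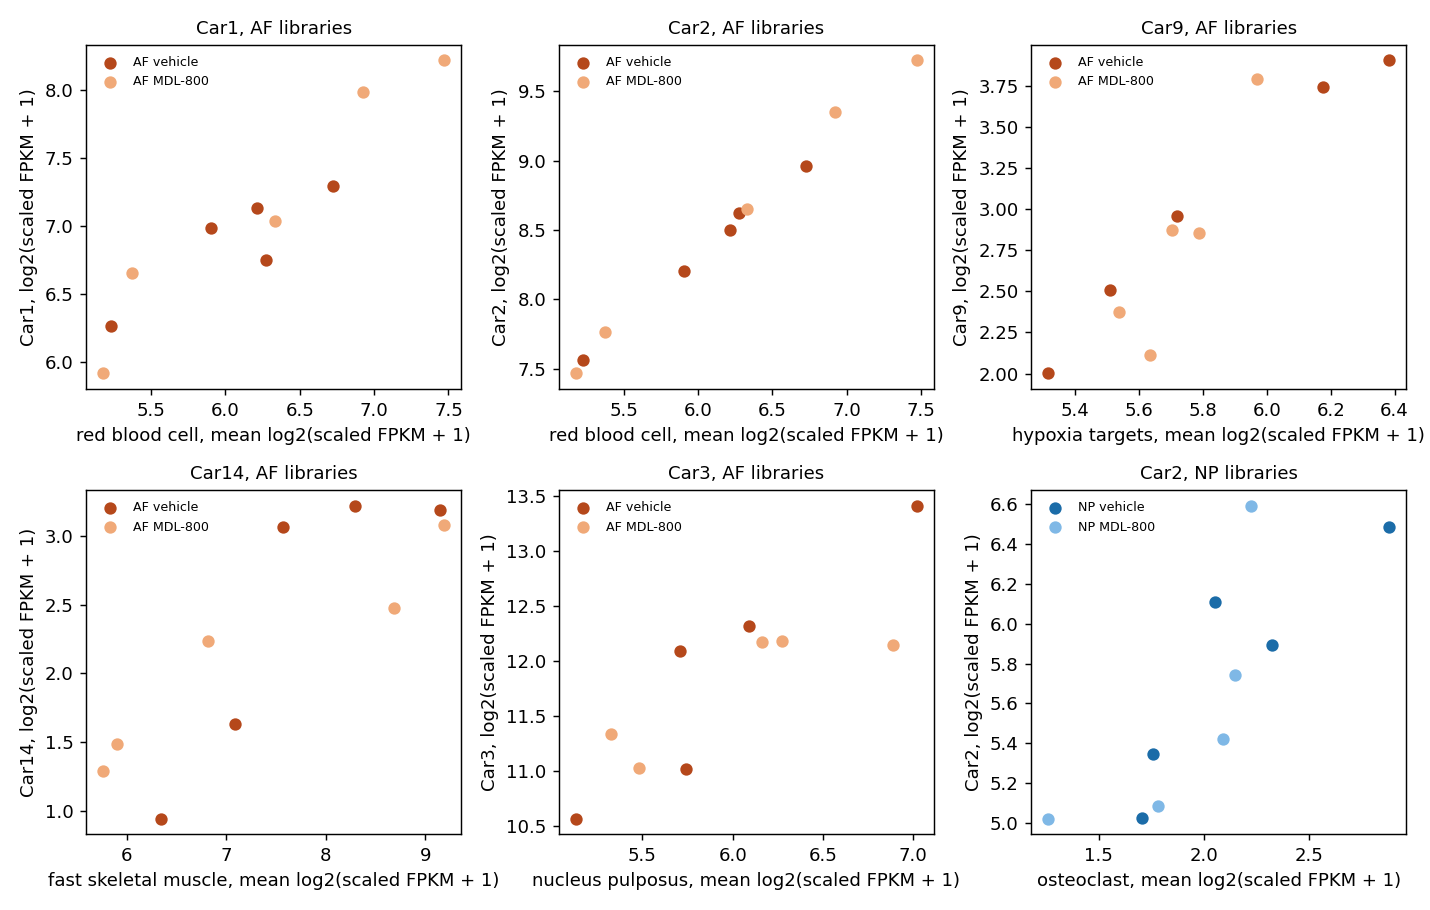
Level of a carbonic anhydrase gene against the mean level of a marker or target list, both in log2(scaled FPKM + 1), one point per library, for Car1 and Car2 with red cell markers, Car9 with hypoxia targets, Car14 with fast muscle markers and Car3 with NP markers in AF and Car2 with osteoclast markers in NP. Car2 in AF lies nearly on a line (r = 0.997), and the other panels scatter more (r = 0.816 to 0.943).

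The genes whose deviations from the group means were most like those of each member over the 20 libraries were named as a description. For Car2 they were Epb42, a red cell membrane protein (r = 0.983), Slc43a1 (r = 0.958) and Klf1, the erythroid transcription factor (r = 0.947). For Car1 they were the cell division genes Cdc6 (r = 0.964), Fignl1 (r = 0.961) and Kif4 (r = 0.959). For Car9 the first was Bnip3, a hypoxia-induced mitophagy gene (r = 0.917), and for Car3 it was Gng13 (r = 0.976). For Car12 the list held Tmie (r = 0.94), Thsd4 (r = 0.936) and Ihh, the signal of prehypertrophic cartilage cells (r = 0.933). Car8 was most like Bdkrb2 (r = 0.928), Car13 most like Ywhae (r = 0.903), Car11 most like Slc30a2 (r = 0.845) and Car14 most like Tead1 (r = 0.793). Among the members themselves, Car1 and Car2 had the highest r (0.879), followed by Car3 and Car9 (0.72). Car12 ran opposite to Car3 and to Car9 (r = -0.75 for each pair). The values describe these libraries only, and libraries of both tissues and treatments enter each r, though not with equal weight. Scaled FPKM of Car12 ran from 0 to 0.119 in NP and from 0.391 to 7.44 in AF. Those of Car8 ran from 0.00986 to 0.111 and from 0.503 to 2.43, and those of Car3 from 18580 to 24180 and from 1513 to 10910. Deviations of these genes were thus smaller in NP than in AF. Their r values, with those of Car12 with Car3 and Car9, rest mainly on the AF libraries.

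The partners of carbonic anhydrases in acid handling were taken from lists of bicarbonate carriers, proton and lactate exporters and hypoxia targets. Between the vehicle groups, 1 of 6 tested bicarbonate carriers was higher in NP, Slc4a3 (0.87, adjusted p = 0.00459), and 2 were lower. These were Slc4a1, the red cell anion exchanger (-3.87, adjusted p = 5.04e-05), and Slc26a6 (-0.998, adjusted p = 0.000299). Of 6 proton and lactate exporters, 2 were higher, among them Bsg, the chaperone of the lactate carriers (1.23, adjusted p = 0.000535). The other 3 called were lower, the lactate carriers Slc16a7 (-2.23) and Slc16a1 (-1.32, adjusted p = 0.000784) and the proton channel Hvcn1 (-3.26, adjusted p = 9.55e-05). Slc16a7 stayed under 1 scaled FPKM in every NP library and passed the filter through AF alone. Its difference is given without a test. The exporter counts that include it, in both treatments, are not support for a tissue difference. All 13 hypoxia targets were higher in NP, led by p-value by Egln3 (1.79, adjusted p = 0.000102), P4ha1 (0.81, adjusted p = 0.000118), Pdk1 (0.98, adjusted p = 0.000155) and Vegfa (1.96, adjusted p = 0.000193). Their median difference was 1.14, beside -0.08 over all tested genes. These counts stand beside 21.8% higher and 33.9% lower over all tested genes. Between the MDL-800 groups the carriers called were 2 higher and 2 lower of 6, the exporters 3 higher and 3 lower of 6 and the hypoxia targets 13 higher of 13, beside 25.6% higher and 37.2% lower over all tested genes, so the share of carriers called is near the background of 62.8%. Of 6 other carbonic anhydrases, only Car5b, a mitochondrial form, was tested. It stood at 6.71 to 21.1 scaled FPKM over all libraries and was not called in any comparison (-0.33 between the vehicle groups, adjusted p = 0.121).

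MDL-800 did not move any carbonic anhydrase past the threshold in NP. By limma 0 of the 9 were called, beside 0.25% of all tested genes, and 2 of the 9 had an unadjusted p under 0.05, beside 14.1%. The groups separated without overlap for 0 of the 9, beside 4.5%. Car14 gave the largest difference among them, with means of 66.6 ± 64.0 under MDL-800 and 16.3 ± 5.7 under vehicle (SD, n = 5 each). Its log2 difference was 1.48 (SE 0.62, 95% interval 0.11 to 2.85, limma unadjusted p = 0.0369, adjusted p = 0.314), with 3 of 5 treated libraries above all vehicle libraries. Car11 differed by 0.50 (SE 0.23, 95% interval 0.00 to 1.00, limma unadjusted p = 0.0488, adjusted p = 0.351), with 2 of 5 above all vehicle libraries. With the GC trend of each library removed, the Car11 value was 0.29 (adjusted p = 0.687) and the Car14 value 1.44 (adjusted p = 0.395). The slope on GC content ran from -0.285 to -0.00672 per 10 percentage points in NP vehicle and from 0.0228 to 0.0885 in NP MDL-800, and Car11, at 60.4% GC, had the highest GC content of the 10 genes. The other 7 had differences of -0.20 to 0.14. For Car3 the interval was -0.57 to 0.86, for Car9 -0.47 to 0.33, for Car1 -0.78 to 0.58 and for Car2 -0.95 to 0.55.

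In AF by limma 0 of the 9 were called, beside 0% of all tested genes, and 1 had an unadjusted p under 0.05, beside 1.65%. The groups separated for 0 of the 9, beside 0.226%. The gene with the low unadjusted p was Car12, with means of 3.46 ± 2.35 under MDL-800 and 1.17 ± 0.91 under vehicle (SD, n = 5 each), and 3 of 5 treated libraries above all vehicle libraries. Its difference was 1.00, given without a test. Car12 reached 1 FPKM in all AF MDL-800 libraries and in only some AF vehicle libraries. It thus passed the filter through the treated group, where it was high, and its place in the count above is not support for a treatment difference. The 8 bone markers summed to 703 to 3117 scaled FPKM in AF vehicle and 1830 to 3220 in AF MDL-800, and library 28, with the highest Car12, stood at 2923. Over the AF libraries Car12 gave r = 0.555 with bone markers, a relation chosen after the values had been seen (rho = 0.576, exact permutation adjusted p = 0.173 and 0.259). With cartilage markers r was 0.586 in AF (rho = 0.503, exact permutation adjusted p = 0.173 and 0.317) and 0.677 in NP (rho = 0.718, adjusted p = 0.173 and 0.152), also chosen after the values had been seen. Of the 8 bone and 7 cartilage markers 0 were called with MDL-800 in AF, and their median differences were 0.76 and 0.57, beside 0.01 over all tested genes. The part of bone or cartilage in the Car12 values was not tested. Car11 differed by 0.42 (95% interval -0.03 to 0.87), and the remaining 7 by -0.30 to 0.28, with 95% intervals of -1.27 to 1.06 for Car3 and -1.43 to 0.83 for Car14.

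The treatment effects did not differ between the tissues past the threshold for any member: 0 of 9 were called by limma, beside 0% of all tested genes, and 1 had an unadjusted p under 0.05, beside 3.73%. That 1 gene was Car12, with an effect in NP minus that in AF of -1.05. It is given without a test, because Car12 passed the filter through AF MDL-800, where it was high. For Car14 the effect in NP minus that in AF was 1.78 (SE 0.85, limma unadjusted p = 0.05, adjusted p = 0.9997). None of the genes on these 3 partner lists was called in either treatment comparison.

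**Figure D4:**
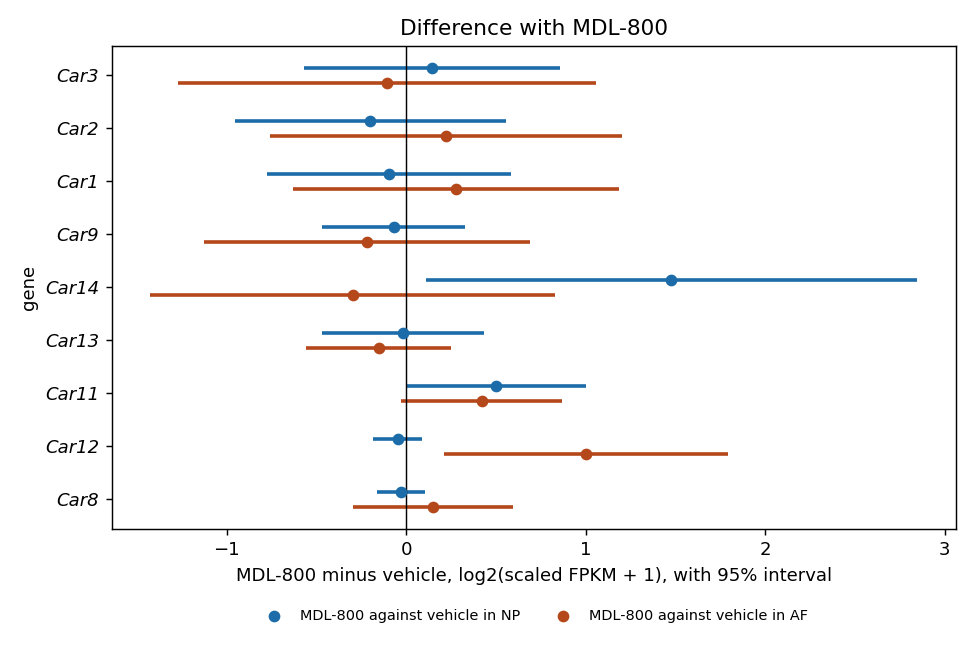
Difference between MDL-800 and vehicle in log2(scaled FPKM + 1) for the 9 tested genes, with 95% intervals from limma, in NP (blue) and AF (orange). Only Car14 and Car11 in NP and Car12 in AF have intervals above 0, and none of the 3 passed the adjusted threshold. Car12 passed the filter through AF MDL-800, where it was high, so its AF interval is not support for a difference.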

How the data were processed

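Stranded total RNA libraries of 20 disc samples were measured. The deposited values are FPKM per gene, rounded by the authors to 2 decimals. Reads were aligned with STAR 2.7.11b to mm10, per the submitters' processing notes, and the gene counter and annotation are not given in the sources used here. FPKM were scaled by the median ratio over 11308 genes and tested as log2(scaled FPKM + 1) with limma 3.58.1 in R 4.3.3 (mean-variance trend, groups compared pairwise, both directions, Benjamini-Hochberg over 16383 genes). Relations used Python 3.11.15 with exact permutation within groups (14400 orders). The scripts were tested on simulated data. Of the low values used to estimate depth, 82.4% to 87.5% lay within 0.2 of a whole fragment. Coordinates follow GENCODE M21, and promoters RefSeq GRCm38.p6.

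All 10 members were named, plus list genes past the threshold (up to 4 a list and comparison by smallest p) and the 3 genes most like each member. One further list is not reported here. The members, lists and tests were chosen with earlier results of these data known. Alternatives covered the pseudocount, scaling, filter, trend, samples fitted and each library left out. A block by a number that NP and AF column headers share, a GC correction and 14 relations were added after seeing the data.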

Additional observations from a re-analysis of the deposited data

Results flagged for a closer look

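Among the 40 sets of 5 libraries (10 genes in 4 groups), 4 had an end value set apart by a gap of more than 0.71 of the whole range. For normally distributed values chance gives about 1 in 20. Car1 stood at 37.4 scaled FPKM in NP vehicle library 6, above the other 4. Car9 stood at 57.6 in NP vehicle library 3, the library with the highest summed fast muscle markers of the NP libraries (1597 scaled FPKM). Car13 stood at 3.00 in AF MDL-800 library 28, below the other 4. Car4 stood at 0.179 in NP MDL-800 library 15 and was listed at 0 in the other 4, so any value above 0 there would have been flagged.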

How the results depend on the processing

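With Car8 and Car12 included, 8 members were called between the vehicle groups and 9 between the MDL-800 groups. Over all tested genes the shares called were 55.7% and 62.8%. Car8 and Car12 passed the filter through AF alone, so these member counts are not support for a tissue difference. The member counts stayed within 1.5 times under all alternatives run (6 to 9 and 7 to 10). Over the alternative settings, genes called of all tested ran from 8235 to 10573 and from 7857 to 12123. Member counts stayed at 0 for the treatment comparisons and their difference. No tissue difference of a member turned direction among 338 member values from the refits, and no treatment difference passed the threshold among 561. Each refit gave a value for up to 10 members, so there were fewer refits than values. A block by the header number that NP and AF libraries share brought the vehicle difference of Car13 to an adjusted limma p of 0.0195. Same-numbered libraries correlated at -0.178 to 0.285 across genes, the labels do not say what the number is, and it was not taken as a pairing. Quantile normalization and a fit of all 4 groups also called Car13 (adjusted p = 0.00401 and 0.0193).

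Small treatment differences turned direction. Under quantile normalization Car3 gave -0.78 in NP and -0.54 for the effect in NP minus that in AF. With the GC trend removed Car8 gave 0.11 and Car13 0.13 in NP, and Car11 -0.0731 for the difference of effects, which was -0.01996 at a pseudocount of 0.1. With each library left out in turn, the NP values ran from -0.26 to 0.15 for Car1, -0.191 to 0.0561 for Car9 and -0.164 to 0.0775 for Car13. Those in AF ran from -0.0611 to 0.503 for Car2, -0.44 to 0.28 for Car3 and -0.00306 to 0.294 for Car8. The difference of effects ran from -0.13 to 0.58 for Car3, -0.0701 to 0.405 for Car9, -0.0606 to 0.209 for Car11 and -0.0121 to 0.257 for Car13.

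Relations past the threshold numbered 6, 7 without scaling and 2 without the 2 libraries farthest from the median, where fewer orders are possible. Without those 2, r was -0.30 for Car13 with red cells, 0.0501 for Car3 with fat, 0.35 for Car11 with nerve, -0.21 for Car9 with hypoxia targets and -0.20 for Car8 with annulus markers in NP. In AF it was -0.0842 for Car3 with fat, -0.0173 for Car3 with slow muscle, -0.23 for Car8 with nerve, 0.57 for Car11 with nerve and -0.21 for Car11 with NP markers. Depth limits Car4, Car8 and Car12 in NP, where a library held at most 16.7 estimated fragments of any of them.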
